A study of Mus musculus with 9 samples.

Results

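Expression of 10 genes used to tell skin fibroblast lineages apart was followed on 9 mouse arrays. The 10 genes are the surface markers Dpp4, Fap, Cd34, Lrig1, Thy1, Pdpn and Prom1, the membrane-bound Pi16, and the secreted proteins Clec3b and Dpt. They were chosen by name, and all 10 were found among the 19938 genes measured. Each had 1 probe set with its symbol alone. The 4 SKP arrays (replicates 3, 4, 5 and 6) hold skin-derived precursor cells, which grow as spheres from dissociated skin, collected at primary passage. The skin was that of mice at postnatal day 4, and no genotype or strain is labelled for the mice the spheres came from. The 5 sorted arrays (replicates 2, 16, 17, 18 and 20) hold back skin cells of Sox2:EGFP mice of the same age, positive for the EGFP reporter and negative for CD34 by antibody staining, sorted straight into RNAlater. The labels do not say which promoter fragment or allele drives the EGFP, and neither group carries another labelled allele or treatment. Each array is an independent preparation, and no technical replicates were made. Values are log2 levels, so a difference of 1 is a 2-fold change.

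Fibroblasts of the dermis are not a single cell type. In mouse skin the upper, papillary lineage is known for Dpp4 and Lrig1, the lower, reticular lineage gives rise to dermal adipocytes, and the dermal papilla at the base of the hair follicle is a separate mesenchymal cluster that expresses Sox2 in some follicle types. Fibroblasts of the fascia and of vessel sheaths are known for Pi16, Clec3b and Dpt, and Fap and Pdpn are known for rising when fibroblasts are activated by injury. None of these genes is specific to fibroblasts, since Pdpn also marks lymphatic endothelium, Thy1 marks T cells, Lrig1 marks epidermal stem cells and CD34 marks vessels and bulge keratinocytes.

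A low level was judged against 1015 olfactory receptor genes, which are silent in most tissues. Their median lay between 4.43 and 4.65 on the 9 arrays, and their 95th percentile between 5.96 and 6.27. No detection p-values were used, so this is a guide and not a test of expression. The sort gene Sox2 was 5.78-fold lower in SKPs, and it was above that percentile on 5 of 5 sorted and 3 of 4 SKP arrays. The other sort gene, Cd34, was above that percentile on all 5 sorted arrays. The cells were sorted by CD34 protein, whereas the arrays measure RNA. Cd34 RNA was at 7.82, 7.59 and 7.31 on sorted replicates 16, 17 and 18, but at 10.19 and 10.27 on replicates 2 and 20. Sorted replicates 2 and 20 stand apart from the other 3 in most of the 10 genes, so results are also given without them. Because these arrays were picked by the values themselves, p-values and counts without them are descriptions.

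The sequences before the start sites of 4 genes are shown because these genes moved most in either direction or rose together, and RefSeq holds a promoter for 7 of the 10 (not for Fap, Thy1 or Clec3b). The bases are RefSeq's in build GRCm38.p6, from the 250 bases before the start, without those inside the annotated gene itself. Capitals mark matches to any of 4 promoter motifs, searched on both strands. A TATA box was searched as TATAAA. For the box named after its letters, the search used CCAAT. The GC box, which Sp family factors bind, was searched as GGGCGG. Sites for the AP-1 factors Fos and Jun were searched as TGANTCA, where N is any base.
Pdpn, chr4:143299565-143299814, minus strand: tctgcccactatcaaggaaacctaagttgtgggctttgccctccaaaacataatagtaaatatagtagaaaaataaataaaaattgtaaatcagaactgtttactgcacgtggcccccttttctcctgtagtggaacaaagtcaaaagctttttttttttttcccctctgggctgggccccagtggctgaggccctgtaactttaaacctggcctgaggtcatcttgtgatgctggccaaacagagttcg
Dpt, chr1:164796413-164796662, plus strand: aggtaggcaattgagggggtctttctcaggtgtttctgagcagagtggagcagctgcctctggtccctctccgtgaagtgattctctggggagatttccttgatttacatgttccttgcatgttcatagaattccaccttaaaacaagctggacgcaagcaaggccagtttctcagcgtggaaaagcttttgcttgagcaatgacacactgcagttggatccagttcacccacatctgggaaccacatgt
Lrig1, chr6:94700299-94700395, minus strand: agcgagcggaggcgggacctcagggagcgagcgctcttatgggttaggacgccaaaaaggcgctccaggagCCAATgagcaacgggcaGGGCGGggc
Dpp4, chr2:62412316-62412481, minus strand: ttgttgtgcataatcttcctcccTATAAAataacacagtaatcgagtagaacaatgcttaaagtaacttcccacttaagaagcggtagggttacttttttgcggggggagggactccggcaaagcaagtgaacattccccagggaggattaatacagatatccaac

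These 4 stretches differ in make-up. Over the whole 250 bases, Lrig1 held 26 CpG dinucleotides at 71.6% G and C, whereas Pdpn held 2, Dpt 3 and Dpp4 4. The median of all 32851 promoters in the table was 6 CpG and 52.4% G and C. Lrig1 held 2 GC boxes, 1 of them beyond the stretch shown, and 1 CCAAT box, and a GC box was present in 32.7% and a CCAAT box in 33.8% of all promoters. The TATAAA of Dpp4 began 227 bases before the start, and 12.4% of all promoters hold these letters on either strand. An AP-1 match, found in 6.75% of all promoters, was absent from all 4 windows and present in that of Prom1, 88 bases before its first listed start. The Dpt window overlaps the annotated gene Gm32569. These matches describe the letters in the windows and were not tested as binding sites.

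Pdpn encodes podoplanin, a mucin-type membrane glycoprotein that binds the platelet receptor CLEC-2. It showed the largest increase of the 9 genes tested. Its level was 12.17, 11.83, 12.51 and 12.31 on SKP replicates 3, 4, 5 and 6. On sorted replicates 2, 16, 17, 18 and 20 it was 9.20, 8.55, 8.42, 8.48 and 9.37. Every SKP array lay above every sorted array, with a gap of 2.46 between the groups. The means were 12.21 ± 0.29 (SD, n = 4) and 8.80 ± 0.45 (n = 5), and Pdpn was 10.6-fold higher in SKPs (95% confidence interval 7.46 to 15.0, adjusted p = 2.42e-06). Adjusted p-values here are limma's, with Benjamini-Hochberg adjustment over all 19938 genes, and a gene was called at under 0.05. Culture, sorting and the choice of cells differ together between the groups, so their parts in any difference cannot be told apart. In these bulk samples, more cells that express a gene and more RNA per cell cannot be told apart.

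Thy1 encodes CD90, a GPI-anchored glycoprotein widely used as a fibroblast surface marker. It was at 10.12, 9.99, 10.11 and 10.04 in SKPs, where its SD of 0.06 was the smallest of the 10 genes. The sorted level was 8.15, 8.13 and 8.20 on replicates 16, 17 and 18, against 9.64 on replicate 2 and 9.69 on replicate 20. The groups did not overlap, but replicate 20 came within 0.31 of the lowest SKP array. Thy1 was 2.47-fold higher in SKPs (95% confidence interval 1.42 to 4.29, adjusted p = 0.0158), and 3.75-fold higher without sorted replicates 2 and 20.

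Cd34 encodes a sialomucin of vascular, follicular and fibroblast cells, and the cells were sorted against its protein, so its values check the label and were not tested. SKPs held 11.34, 11.14, 11.62 and 11.61. The mean was 11.43 ± 0.23 (SD, n = 4) against 8.64 ± 1.47 (n = 5), and all 5 sorted arrays lay below all 4 SKP arrays. The SD of the sorted arrays was the largest of the 10 genes. The ratio was 6.91-fold with all arrays and 14.4-fold without sorted replicates 2 and 20.

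Lrig1 encodes a leucine-rich repeat membrane protein that restrains ErbB receptor signalling. It was at 10.75, 10.83, 10.64 and 10.67 in SKPs. The sorted arrays gave 9.88 and 9.98 for replicates 2 and 20 and 8.66, 8.81 and 8.64 for replicates 16, 17 and 18. The groups did not overlap. Lrig1 was 2.88-fold higher in SKPs (95% confidence interval 1.82 to 4.56, adjusted p = 0.00241). Its relatives went the other way: Lrig3 was 2.41-fold lower (adjusted p = 0.00112), at 8.57 to 9.03 in SKPs and 9.58 to 10.60 in the sorted cells, and Lrig2 was lower by a smaller amount, with a log2 difference of -0.45 (adjusted p = 0.00805).

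**Figure D1:**
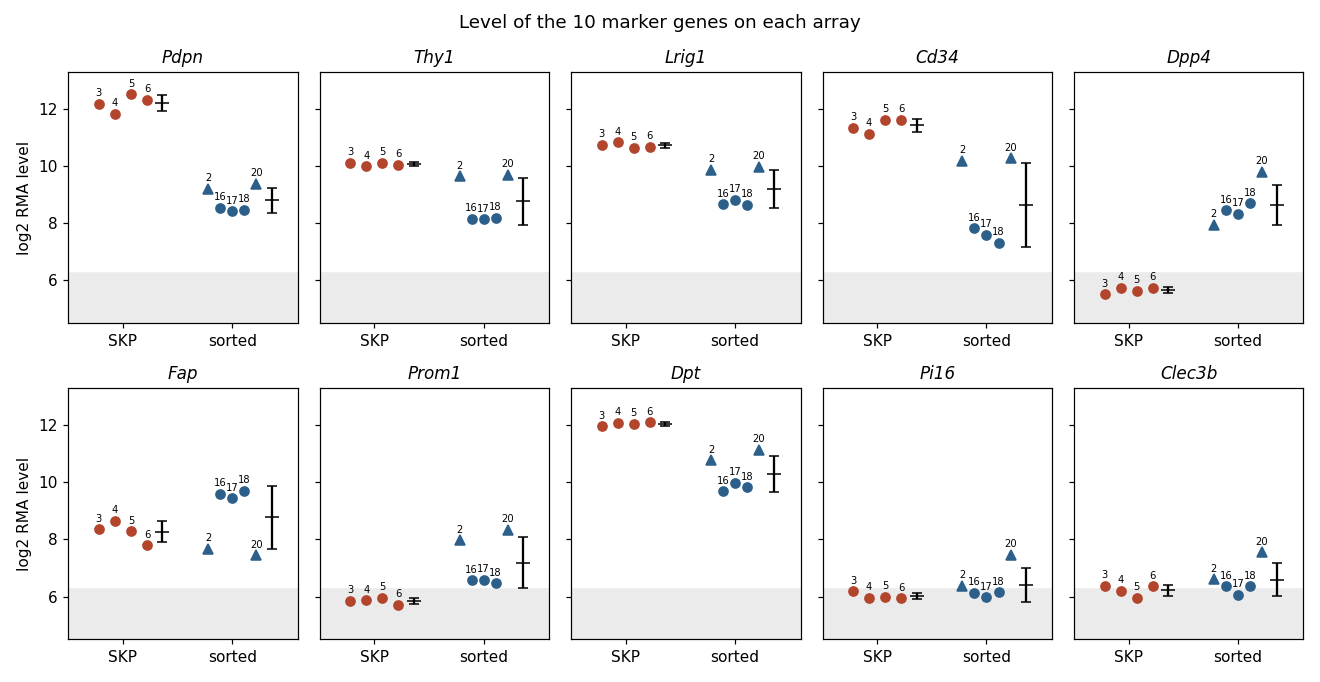
Level of the 10 genes on each array (log2 RMA level, y axis) in SKPs (red, n = 4) and sorted cells (blue, n = 5), with replicate numbers beside the points, triangles for sorted replicates 2 and 20, and bars at the mean ± SD. The grey band reaches up to 6.27, the highest 95th percentile of the olfactory receptor genes, and all SKP points of Dpp4, Prom1 and Pi16 lie inside it.

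Dpp4 and Fap encode related membrane-bound serine peptidases of the prolyl oligopeptidase family, and they lie on chromosome 2 with 1 protein-coding gene, Gcg, between them. Dpp4, also known as CD26, removes dipeptides from the ends of chemokines and incretins. In SKPs it was at 5.51, 5.73, 5.64 and 5.74, below the 95th percentile of the olfactory receptor genes on all 4 arrays. On sorted replicates 2, 16, 17, 18 and 20 it was at 7.95, 8.45, 8.34, 8.70 and 9.80. The groups were separated by 2.21. Dpp4 was 7.98-fold lower in SKPs (95% confidence interval 4.97 to 12.8, adjusted p = 4.07e-05), and this fold is approximate because the SKP level was so low.

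Replicates 2 and 20 took opposite ends of the sorted range for Dpp4, unlike any other of the 10 genes. Replicate 2 had the lowest sorted level and replicate 20 the highest. In every one of the other 9 genes, these 2 arrays were neighbours at the same end of the sorted range.

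Fap, the fibroblast activation protein, which cleaves after proline in collagen fragments and other substrates, was not called over all 9 arrays. It was at 8.36, 8.66, 8.28 and 7.79 in SKPs. The 3 sorted replicates 16, 17 and 18 were above all of these at 9.60, 9.44 and 9.70, and replicates 2 and 20 below all of them at 7.67 and 7.44. The log2 difference was -0.49 (95% confidence interval -1.61 to 0.62, adjusted p = 0.479). Without sorted replicates 2 and 20 Fap was 2.47-fold lower in SKPs (adjusted p = 3.50e-04). These 2 arrays were picked because they stood apart in most of the 10 genes, Fap among them. This p-value is therefore only a description. With all 9 arrays kept and limma's array weights, the log2 difference was -1.30 (adjusted p = 0.00235). These weights are lower for arrays that scatter more within their group, so the 2 settings are not independent. Gcg, the proglucagon gene between Dpp4 and Fap, was at 5.13 to 5.94 on all 9 arrays, about the level of the olfactory receptor genes.

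Prom1 encodes prominin-1 (CD133), a membrane protein of cell protrusions that is used as a marker of the dermal papilla. In SKPs it was at 5.85, 5.87, 5.96 and 5.72, below the olfactory receptor percentile on all 4 arrays. The sorted levels were 6.57, 6.58 and 6.47 on replicates 16, 17 and 18 and 7.97 and 8.34 on replicates 2 and 20. The groups did not overlap, with a gap of 0.51. Prom1 was 2.52-fold lower in SKPs (95% confidence interval 1.38 to 4.60, adjusted p = 0.0211) and 1.61-fold lower without sorted replicates 2 and 20. As for Dpp4, these folds are approximate because the SKP level was so low. The call was lost on leaving out SKP replicate 3 (adjusted p = 0.0519) or SKP replicate 6 (adjusted p = 0.0573), with a range of 9.59e-05 to 0.0573 over all alternatives. Its relative Prom2, an epithelial prominin, was 2.26-fold lower (adjusted p = 0.00256). Prom2 was at 6.01 to 6.44 in SKPs, near the olfactory receptor percentile, so its fold is approximate too.

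Among the sorted arrays Prom1 ran opposite to the mean of the 19 measured dermal papilla genes, a list that includes Prom1 and Sox2. That mean was lower on replicate 2 (10.01) and replicate 20 (9.57) than on replicates 16, 17 and 18 (10.99 to 11.14). Sox2 itself ran with Prom1, at 9.25 and 8.97 on the first pair and 8.24 to 8.61 on the rest. Lepr, the leptin receptor and the papilla gene with the largest decrease, was at 9.93 and 9.37 on replicates 2 and 20 and at 11.93, 11.69 and 12.02 on replicates 16, 17 and 18. Keratinocyte marker genes ran with Prom1, with a mean of 9.28 to 9.44 on replicates 16, 17 and 18, 10.01 on replicate 2 and 11.44 on replicate 20. This was not particular to them. Means of general, activated, reticular and fascia fibroblast genes and of melanocyte, mast cell, blood vessel and lymphatic genes were also higher on replicates 2 and 20. The mean of the papillary fibroblast genes was lower on both. The part of any of these cells in the Prom1 result was not tested.

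Dpt encodes dermatopontin, a small matrix protein of the dermis that binds decorin. It was at 11.96, 12.09, 12.04 and 12.10 in SKPs. Sorted replicates 2 and 20 had 10.77 and 11.14, and replicates 16, 17 and 18 had 9.69, 9.99 and 9.83. The groups did not overlap, and a gap of 0.82 lay between them. Dpt was 3.40-fold higher in SKPs (95% confidence interval 2.21 to 5.23, adjusted p = 6.70e-04).

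Pi16, a membrane-bound peptidase inhibitor, and Clec3b, the plasminogen-binding lectin tetranectin, were low in both groups and were not called. Pi16 was at 6.19, 5.96, 6.00 and 5.94 in SKPs, and at 6.37, 6.13, 5.98, 6.15 and 7.46 on sorted replicates 2, 16, 17, 18 and 20. Only sorted replicates 2 and 20 were above the olfactory receptor percentile. Clec3b was at 6.37, 6.21, 5.95 and 6.36 in SKPs, and at 6.61, 6.36, 6.06, 6.36 and 7.55 on the same sorted arrays. Clec3b was above that percentile on 3 of 4 SKP and 4 of 5 sorted arrays. For both genes the groups overlapped and replicate 20 was the highest array. The log2 differences were -0.40 for Pi16 (95% confidence interval -0.99 to 0.20, adjusted p = 0.280) and -0.37 for Clec3b (-0.95 to 0.22, adjusted p = 0.309). The intervals reach to a 1.98-fold and a 1.93-fold lower level in SKPs. Because levels this low are compressed, these values do not bound the true fold.

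**Figure D2:**
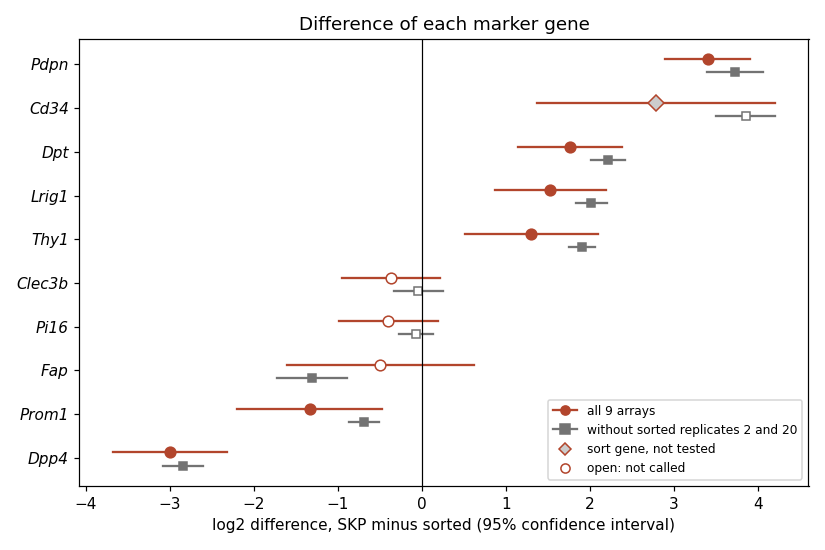
Log2 difference of each gene, SKP minus sorted (x axis), with its 95% confidence interval, for all 9 arrays (red circles) and without sorted replicates 2 and 20 (grey squares). Filled symbols passed an adjusted p of 0.05 and open ones did not, except that Cd34 (diamond and its square) was not tested. Among the 9 genes tested, Pdpn lies farthest right and Dpp4 farthest left with either set of arrays. Only Fap changes its side of the threshold between the sets. Replicates 2 and 20 were picked for removal by their values, so the grey squares are a description.

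Of the 9 genes tested, 4 were higher in SKPs (Pdpn, Dpt, Lrig1 and Thy1), 2 were lower (Dpp4 and Prom1) and 3 were not called. That share, 66.7%, stands beside 37.0% of all 19938 genes called in either direction (20.2% higher and 16.9% lower). In 6 of the 9 genes the groups did not overlap, against 34.0% of all genes (18.5% with SKPs above and 15.5% with SKPs below). The same 6 genes changed at least 2-fold, and 11.7% of all genes were both called and changed at least 2-fold. The genes were chosen with earlier results of these data known, so the excess is a description. Without sorted replicates 2 and 20, 4 were higher and 3 lower. The shares over all genes given here are for all 9 arrays and do not apply to that count. The spread within groups was uneven. The SD of the SKP arrays was 0.06 to 0.36, and that of the sorted arrays 0.45 to 1.47, larger in each of the 10 genes.

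Measured against the SKP mean, the sorted arrays fell into a common pattern for the genes higher in SKPs. Thy1 was lower by 1.92, 1.94 and 1.87 on replicates 16, 17 and 18, with differences of -0.43 and -0.38 on replicates 2 and 20. The corresponding differences for Lrig1 were -2.06, -1.91 and -2.08, and then -0.84 and -0.74. For Pdpn the contrast between the arrays was smaller relative to its size, from -3.79 to -3.66 and then -3.01 and -2.84. Cell type markers moved across the same arrays. The general dermal fibroblast genes averaged 11.88 to 11.94 in SKPs, 11.52 on sorted replicate 2, 11.33 on sorted replicate 20 and 10.58 to 10.67 on the remaining sorted arrays. Which cells of each preparation gave these signals was not tested.

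**Figure D3:**
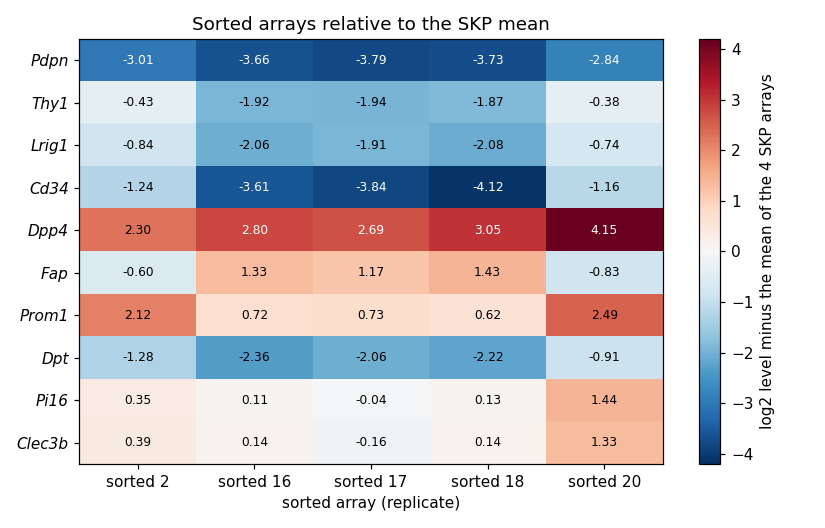
Level of the 10 genes on each of the 5 sorted arrays minus the mean of the 4 SKP arrays (colour and printed value, log2). Replicates 2 and 20 lie closer to the SKP mean than the other 3 for Pdpn, Thy1, Lrig1, Cd34 and Dpt. They lie farther from it for Prom1, Pi16 and Clec3b, and on the opposite side of it for Fap.

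The genes most like each marker were found by the root mean square distance between their 9 log2 values, each centred on its own mean. These distances describe 9 arrays in 2 groups and carry no test. For Lrig1 the nearest genes were Tceal9 (0.06), Clcn5 (0.08) and the basement membrane collagen Col18a1 (0.11). For Dpt they were Nudcd2, Ahnak2 (0.10 each) and the proteoglycan Dcn (0.12), and for Thy1 they were Lrrc59, Igf2bp1 and Ccne1 (0.10 to 0.12). Pdpn was nearest to Bcat1 (0.11), Ace (0.18) and the chemokine Cxcl10 (0.20). The genes nearest to Cd34 were the matrix protein genes Tnc (0.34) and Efemp1 (0.40) and the receptor Nrp1 (0.42). They were farther away than those of any other marker, but this distance grows with the spread of a gene. Cd34 had the largest spread among the sorted arrays, and its Pearson correlation with Tnc over the 9 arrays was 0.983.

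The lower and the uncalled genes had other companions. Dpp4 was nearest to Crybg1 (0.21), the junction gene Jup (0.27) and Sfn (0.29), the last of which is on the keratinocyte marker list. Fap was nearest to Spon1 (0.19), Ogt (0.22) and Crebl2 (0.23), all of which were also lowest on sorted replicates 2 and 20. The matrix genes Fmod (0.14) and Hapln3 (0.14) and the LIM domain gene Pdlim1 (0.16) were nearest to Prom1. Clec3b was the second nearest to Pi16 (0.13), after Smtnl2 (0.12) and before Rasgrp1 (0.14), and Clec3b itself was nearest to Tnk1, Krt7 and Wnt4 (0.13 each). Sorted replicate 20 was the highest array for Pi16, Clec3b and each of these 5 neighbours.

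Of 18 genes related to the markers by protein family, name or activity, 5 were higher in SKPs and 4 lower. These counts stand beside 20.2% of all genes called higher and 16.9% called lower. Dpp7 is a lysosomal dipeptidyl peptidase that shares an activity with Dpp4 but not its peptidase family. Dpp7 was 3.90-fold higher (adjusted p = 2.29e-07), at 9.60 ± 0.12 (SD, n = 4) against 7.64 ± 0.12 (n = 5). It ran against Dpp4, and its sorted arrays, at 7.51 to 7.84, did not separate replicates 2 and 20 from the rest. Glipr2 (3.05-fold) and Crispld2 (3.01-fold), which share the CAP domain with Pi16, were higher as well. Podxl2, a sialomucin related to Cd34, was 2.10-fold lower (adjusted p = 6.28e-05), and with Lrig3 and Prom2 it made up the 3 with the largest decreases.

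The counts given for each list from here on stand beside 20.2% of all genes called higher and 16.9% called lower. Those shares are for all 9 arrays and do not apply to counts without sorted replicates 2 and 20. Over 16 alternative settings, 3396 to 6145 of all genes were called higher and 2841 to 4505 lower. The papillary fibroblast list was split. Of its 14 genes, 6 were higher and 7 lower in SKPs, with a median log2 difference of -0.45 (0.07 over all genes). Pdpn, the matrix glycoprotein gene Tnc (9.28-fold, adjusted p = 0.00117), and Entpd1, the ectonucleotidase CD39 (4.14-fold, adjusted p = 5.68e-04), led the higher genes. Rspo1, which amplifies Wnt signals (8.17-fold, adjusted p = 5.57e-04), Dpp4 and the transcriptional repressor Trps1 (6.33-fold, adjusted p = 1.79e-05) led the lower ones. Without sorted replicates 2 and 20 Tnc was 17.1-fold higher and Rspo1 13.8-fold lower. Lrig1 and Pdpn, which share this list with Dpp4, rose where Dpp4 fell.

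Genes of the reticular and preadipocyte lineage and of fascia fibroblasts also moved both ways. Of 11 measured reticular and preadipocyte genes (Ly6a was not analysed), 4 rose and 2 fell, and the median log2 difference was 0.59. Plac8 (4.68-fold), the preadipocyte factor gene Dlk1 (4.15-fold, adjusted p = 0.0331) and the calcification inhibitor Mgp (3.11-fold) were higher, and Gpx3 (2.54-fold) and Col14a1 (2.12-fold) lower. Plac8 was at 4.82 to 5.63 on the sorted arrays, below the olfactory receptor percentile on all 5, so its fold is approximate. Dlk1 varied widely, from 9.06 to 11.16 in SKPs and from 7.08 to 10.16 in the sorted cells, and was 7.52-fold higher without sorted replicates 2 and 20. Of 15 measured fascia genes, 3 rose and 7 fell, and the median was -0.37. The fibulin Efemp1 (10.7-fold, and 20.4-fold with replicates 2 and 20 left out), Dpt and Timp2 (1.34-fold) were higher. The guidance gene Sema3c (7.64-fold), Dpp4 and Pcolce2 (2.88-fold) were the lowest. Without sorted replicates 2 and 20, 5 of the fascia genes were higher and 7 lower.

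General dermal fibroblast genes were higher where they were called, and activated fibroblast genes were divided. Of 16 general genes 8 rose and 0 fell, and the median was 0.76. The proteoglycans Lum (20.1-fold, and 39.0-fold with replicates 2 and 20 left out) and Dcn (3.32-fold) and the fibulin Fbln1 (4.11-fold) led them. Without those replicates 14 were higher and 1 lower, and 1 was also lower without replicate 20 alone. Of 13 activation and myofibroblast genes 5 rose and 5 fell, and the median was 0.12. The protease inhibitor Timp1 (30.9-fold, and 46.4-fold with replicates 2 and 20 left out), Pdpn and Tnc were the highest. The contractile genes Acta2 (8.36-fold) and Tagln (7.23-fold) and the activin subunit Inhba (3.38-fold, adjusted p = 0.0267) were the lowest. Inhba was 5.90-fold lower without sorted replicates 2 and 20. The count of lower genes was 3 without SKP replicate 3, and 2 without SKP replicate 4 or SKP replicate 6. Of the 2 markers on this list, Pdpn was called and Fap was not.

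**Figure D4:**
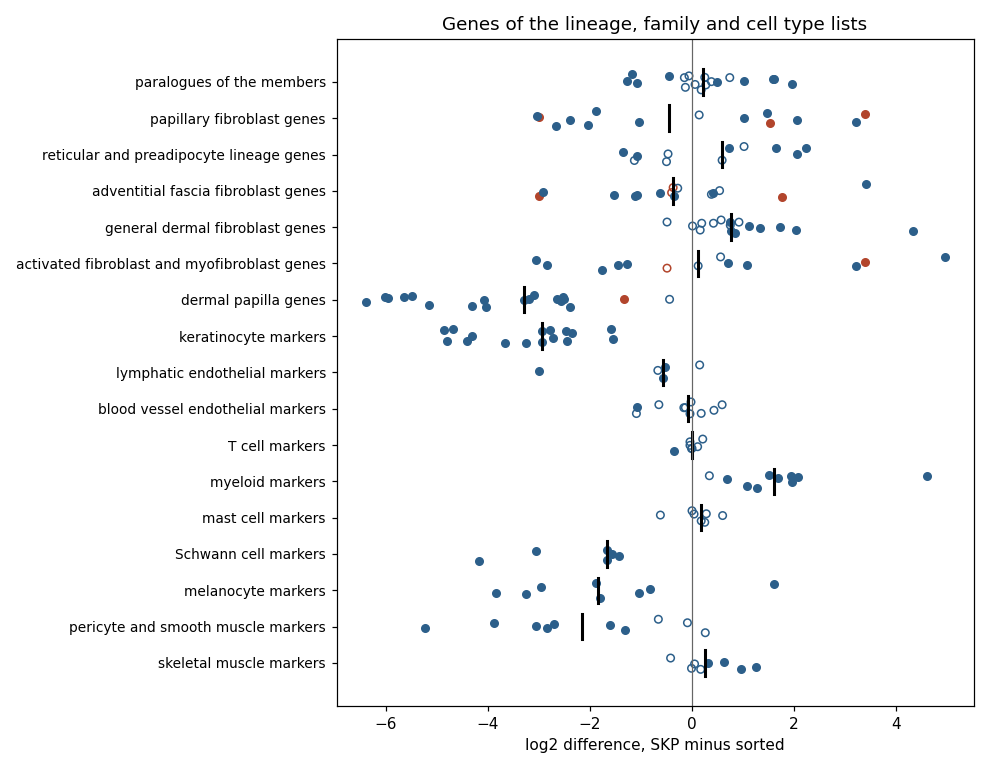
Log2 difference, SKP minus sorted (x axis), of every measured gene on each list, with filled points for genes past an adjusted p of 0.05, open points for the others, red for genes among the 10 markers and a black bar at the list median. The papillary list spreads over both sides of 0, with its median at -0.45, whereas every dermal papilla and keratinocyte gene lies below 0.

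Markers of the other cells that carry these surface proteins differed between the groups as well. The list of dermal papilla genes includes the sort gene Sox2, and 18 of its 19 genes were lower in SKPs, with a median of -3.30. All 16 keratinocyte genes were lower, with a median of -2.95, and their mean was 6.44 to 6.74 in SKPs and 9.28 to 11.44 in the sorted cells. Krt5, the basal keratin, was 25.6-fold lower, or 16.4-fold lower with sorted replicates 2 and 20 left out. Dsc3, a desmosomal cadherin, had the largest decrease on the list, at 10.42 to 11.99 in the sorted cells and 5.85 to 6.16 in SKPs. All 6 Schwann cell genes (median -1.67), 7 of 8 melanocyte genes (median -1.85) and 7 of 10 pericyte and smooth muscle genes (median -2.16) were lower too. The remaining melanocyte gene was called higher in SKPs. Of 8 skeletal muscle genes 4 were higher, and of 7 mast cell genes 0 were called, or 3 without sorted replicates 2 and 20. Myeloid genes were higher, 9 of 10, with a mean of 7.01 to 8.59 in SKPs and 5.81 to 6.19 in the sorted cells. In SKPs the lysozyme gene Lyz2 was 24.3-fold higher (adjusted p = 3.32e-05) and the macrophage gene Cd68 3.22-fold higher. Lyz2 was below the olfactory receptor percentile on sorted replicates 2, 18 and 20, so its fold is approximate. The part of these cells in the differences of Dpp4, Lrig1, Pdpn and Prom1 was not tested.

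Vessel and T cell list means lay below the array median of all genes, except the blood vessel mean on sorted replicate 20. The mean of the 5 lymphatic endothelial genes was 5.58 to 5.92 in SKPs and 6.42 to 7.04 in the sorted cells. Of the 5, 3 were lower in SKPs and 2 were not called, and their part in the Pdpn result was not tested. Reln was at 8.68 to 10.16 in the sorted cells and 7.97-fold lower in SKPs, while the defining gene Prox1 averaged 5.56 in SKPs and 6.08 in the sorted cells, near the olfactory receptor percentile. The mean of 7 T cell genes was 5.71 to 5.89 in SKPs and 5.76 to 5.86 in the sorted cells. Of 10 blood vessel genes only Kdr was lower (adjusted p = 0.0499), a call lost without any SKP replicate and without sorted replicate 2 or sorted replicate 16. The vessel genes averaged 6.18 to 6.29 on sorted replicates 16, 17 and 18, 6.88 on replicate 2 and 7.44 on replicate 20, the arrays where Cd34 was highest among the sorted. In SKPs, where Cd34 was higher still, they averaged at most 6.55. Without sorted replicates 2 and 20, 3 of the blood vessel genes were higher in SKPs and 1 was lower. The part of vessel cells in the Cd34 levels was not tested.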

How the data were processed

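The 9 RNA preparations were hybridised to Mouse Gene 1.0 ST arrays from Affymetrix. The authors deposited log2 levels, 1 per probe set and array. Per the submitters' processing notes RMA, Affymetrix Expression Console and limma were used, and versions, settings and genome build are not given in the sources used here. RMA adjusts background, quantile-normalizes arrays and summarizes probes, which compresses low levels. Array medians over all genes were 7.15 to 7.30. The number of arrays limits the precision.

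Of 35556 probe sets, 21789 had 1 symbol. For the 999 genes with several, the one with the highest mean was taken, giving 19938 genes. SKP minus sorted was tested with limma 3.58.1 in R 4.3.3 (lmFit, eBayes, two-sided), adjusted by Benjamini-Hochberg over all genes and called under 0.05. The calculation was also tested on simulated data. The markers, the gene lists, the naming rule and the removal of sorted replicates 2 and 20 were chosen with earlier results of these data known. The rule names, per lineage or family list, the 3 highest and 3 lowest called genes, and per cell type list the called gene with the largest difference and the one with the highest mean. It also names the 3 genes nearest each marker, outside the lowest 33.3% by mean. Lrig2, Gcg, Prox1 and the genes Ifih1 and Slc4a10 were named outside the rule, after their values were seen. Alternatives were quantile normalization, median centring, a filter on low genes, probe set means, array weights, trend and robust fitting, stricter calls and leaving out arrays.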

Additional observations from a re-analysis of the deposited data

Results flagged for a closer look

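A single array lay far from the rest of its group in 11 of 142 groups checked, where chance flags about 5%. Among the 10 markers this was so for Pi16, at 7.46 on sorted replicate 20 against 5.98 to 6.37 on the other sorted arrays. On the same array Dsc3 was at 11.99 (others 10.42 to 10.76), Kit at 9.30 (8.20 to 8.51) and the mean of the skeletal muscle genes at 7.04 (6.84 to 6.89), while Cd68 was low at 7.04 (7.80 to 8.08). Sorted replicate 2 was high for Crispld2 at 9.73 (8.78 to 8.95) and low for Podxl2 at 7.31 (7.51 to 7.58). SKP replicate 5 was high for Acta2 at 10.10 (9.69 to 9.74) and Dpp7 at 9.78 (9.52 to 9.57), and low for the mean of the keratinocyte genes at 6.44 (6.70 to 6.74). SKP replicate 4 was high for the mean of the reticular and preadipocyte genes at 9.04 (8.70 to 8.75).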

How the results depend on the processing

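Across 16 alternatives Pdpn, Dpt, Lrig1, Thy1 and Dpp4 kept their direction and their call, with adjusted p of at most 0.0431, reached by Thy1. Fap was called under 2 alternatives, array weights (-1.30, adjusted p = 0.00235) and the removal of sorted replicates 2 and 20 (-1.31), with an adjusted p of up to 0.719 elsewhere. These 2 alternatives are not independent, since array weights give less weight to arrays that scatter more within their group. The removal was also chosen on the values of these arrays, so its p-value is a description. Leaving out 1 array at a time gave -1.51 to -1.05 for Prom1 and 1 to 2 markers called lower, and an adjusted p under 0.01 left 1 lower (Dpp4) and 3 higher. Clec3b and Pi16 were called under none, and Pi16 was removed by the filter on low genes. Array weights raised the genes called higher over the whole table from 4020 to 6145. Of 544 list counts under alternatives, 501 stayed within 1.5 times the value reported and 43 did not. Each marker has 1 probe set, so the test of further probe sets gave no value. No paired analysis was possible because the groups share no replicate number. Levels at or below the olfactory receptor percentile limit Dpp4, Prom1 and Pi16 on all SKP arrays, Pi16 on 3 of 5 sorted arrays, and Clec3b on 1 array of each group.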

Other observations

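The protein-coding genes on either side of the Dpp4 and Fap pair gave further values. Ifih1, the RNA sensor MDA5, lies next to Fap and was 4.85-fold higher in SKPs (adjusted p = 2.54e-06), at 10.30 to 10.42 against 7.60 to 8.33. Slc4a10, next to Dpp4, was at 4.53 to 4.96 on all 9 arrays, so the 5 neighbouring genes hold 1 that was higher in SKPs, 1 that was lower and 3 not called.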
